A study of Homo sapiens with 4 samples.

Results

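The genes described here are 10 genes of cellular iron uptake, storage and export, FTH1, FTL, TFRC, TFR2, SLC40A1, SLC11A1, SLC11A2, STEAP3, IREB2 and NCOA4. They were matched by symbol, and the rule uses no measured value, though the genes were picked with earlier results of these data known. Each of the 10 symbols matched 1 of the 41084 Ensembl identifiers in the gene-level files. RNA had been sequenced from OCI-AML3 cells, an established human acute myeloid leukaemia line of monocytic character, in 4 libraries. The genotype label was Plex CEBPB in 2 libraries and Plex Control in the other 2. The product of CEBPB, C/EBPβ, is a transcription factor active in myeloid and inflammatory cells. The sources used here do not explain the word Plex. They also do not say how CEBPB was altered, whether clones or pools were used, or whether the libraries of a group came from separate cultures. The p-values below therefore measure only the spread between these libraries, which may be technical.

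Iron enters most cells as transferrin bound to the transferrin receptor, is released in the endosome, is reduced by a STEAP ferrireductase and crosses into the cytosol through DMT1. Iron that is not used at once is stored inside ferritin, a shell of heavy and light chains, and is set free again when NCOA4 delivers ferritin to lysosomes. Ferroportin is the only known exporter of free iron from the cell. Iron regulatory proteins bind hairpins in the mRNAs of several of these genes when iron is scarce. A bound hairpin ahead of the coding sequence blocks translation, and bound hairpins behind it protect the mRNA from decay. Macrophages and monocytes handle much iron, because they recycle it from red cells and withhold it from microbes.

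The hairpins are shown first because they separate 3 of the genes by where the signal lies. The iron-responsive element was searched as a C, a 5-base stem, the loop CAGTGN and a second stem of 5 bases that pairs in full with the first, G with T allowed. The search covered protein-coding transcripts of GENCODE release 29 (GRCh38) on the transcript strand. Matches were kept only for genes with an entry in the promoter table, which FTH1 and TFR2 lacked. Whether FTH1 or TFR2 held a hairpin is therefore not given here. Of the other 8 genes, 3 held such a hairpin, against 1.48% of 19702 protein-coding genes. FTL (chr19:48965335-48965364, plus strand) and SLC40A1 (chr2:189580660-189580689, minus strand) held 1 each in the 5′ UTR. TFRC held 4 in the 3′ UTR, on the minus strand, at chr3:196050978-196051007, chr3:196050574-196050603, chr3:196050509-196050538 and chr3:196050462-196050491. Each is printed 5′ to 3′ as 30 bases of transcript with the loop in capitals. A match of letters is a description, and other forms of the hairpin were not searched.
FTL: ctcttgcttcaaCAGTGTttggacggaaca
SLC40A1: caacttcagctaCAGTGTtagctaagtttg
TFRC site 1: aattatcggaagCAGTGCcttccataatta
TFRC site 2: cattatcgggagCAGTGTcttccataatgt
TFRC site 3: ctgtatcggagaCAGTGAtctccatatgtt
TFRC site 4: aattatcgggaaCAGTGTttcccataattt
The loop of TFRC site 3 ends in A and that of site 1 in C, while the other 4 hairpins share the loop CAGTGT.

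Levels are given in TPM, the deposited measure of abundance per length that sums alike in all libraries, so that genes can be set side by side. Counts per library summed to between 18151225 and 21950575. CEBPB itself stood at 4.72 and 4.47 TPM in controls 1 and 2 and at 536 and 339 TPM in CEBPB libraries 1 and 2. Of 12 markers of the labelled line 11 were tested, and 3 were higher (LYZ, CD14 and ITGAM), 5 lower (CEBPA, SPI1, TYROBP, CSF1R and MPO) and 3 not past the threshold (CD33, FCER1G and PTPRC). LYZ went from 1413 and 1308 TPM in the controls to 7686 and 7921 TPM in the CEBPB libraries, and CEBPA from 93.1 and 89.7 to 11.5 and 12.1 TPM. SPI1 went from 218 and 223 to 103 and 120 TPM, MPO was at 1.79 TPM or less, and ANPEP, not tested, at 0.792 TPM or less. Of 15 erythroid markers, a cell type that uses many of these genes, 10 were at 0 in all 4 libraries, the adult globin genes HBA1, HBA2 and HBB among them, and 13 were under 1 TPM in every library. The summed level of that list was 7.35 and 8.33 TPM in the controls and 4.60 and 5.99 TPM in the CEBPB libraries, nearly all of it EPOR and TFR2. In the list of iron-recycling macrophages 5 of 11 genes were at 0 throughout (VCAM1, C1QA, C1QB, C1QC and CD5L). Its sum went from 13.6 and 11.3 to 94.9 and 89.1 TPM, mostly HMOX1, with MARCO at 1.22 and 0.880 TPM in the controls and 4.76 and 8.79 TPM in the CEBPB libraries. The list of 8 fibroblast and epithelial markers summed to 1.62 and 1.47 TPM in the controls and 23.0 and 21.9 TPM in the CEBPB libraries, mostly DCN. That of 8 lymphocyte markers summed to 23.6 and 24.8 and to 12.4 and 17.9 TPM, mostly NKG7. In that list GNLY went the other way, from 0.0781 and 0 TPM in the controls to 2.77 and 4.06 TPM in the CEBPB libraries. The list of 7 megakaryocyte markers summed to at most 1.35 TPM. What part these shifts have in the results below was not tested. Fewer cells that express a gene and less of its RNA per cell cannot be told apart in bulk RNA.

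The mRNAs of the ferritin chains, the ferritin receptor NCOA4, ferroportin and the phagosomal transporter were higher in the CEBPB libraries. Those of the ferrireductase STEAP3 and the second transferrin receptor TFR2 were lower. The mRNA of the main transferrin receptor TFRC was nearly level. All 10 genes passed the filter on low counts. By the quasi-likelihood test of edgeR, at a Benjamini-Hochberg adjusted p under 0.05, 5 of the 10 were higher (FTH1, FTL, NCOA4, SLC40A1 and SLC11A1), 3 were lower (TFRC, TFR2 and STEAP3), and SLC11A2 and IREB2 did not pass. Over all 13698 identifiers tested, 48.5% passed, 23.7% as higher and 24.7% as lower. So a pass alone sets a gene little apart here. In TPM the groups did not overlap for 7 of the 10 genes, against 77.4% of all identifiers tested. Tested against a change of 1.5-fold, 4 were higher (FTH1, NCOA4, SLC40A1 and SLC11A1) and 1 was lower (STEAP3), where 17.3% of all identifiers passed. The median log2 fold change of all identifiers tested was 0.00092 with the scaling used, and 0.18 when libraries were scaled by their totals alone, the scale of TPM. Fold changes below are from the first, and are lower than ratios of TPM by about that shift.

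**Figure D1:**
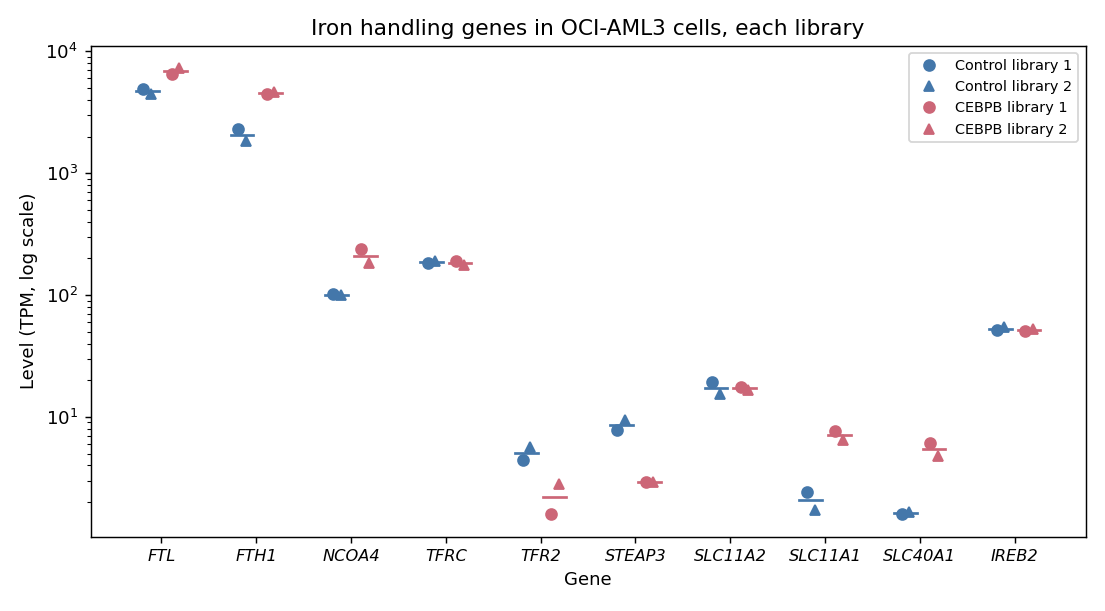
Level of each of the 10 genes in TPM (log axis) in the 4 libraries, with circles for library 1 and triangles for library 2 of each group and a line at the group mean. Both CEBPB libraries lie above both controls for FTL, FTH1, NCOA4, SLC11A1 and SLC40A1, below them for TFR2 and STEAP3, while the groups overlap for TFRC, SLC11A2 and IREB2.

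The ferritin genes were by far the most abundant of the 10. FTL (ENSG00000087086.15, chromosome 19, 48965301 to 48966878, plus strand) encodes the light chain, which helps iron form its mineral core. It read 4889 and 4491 TPM in controls 1 and 2 and 6582 and 7271 TPM in CEBPB libraries 1 and 2. Both CEBPB libraries were above both controls, which was so for 48.7% of all identifiers tested. FTL ranked 22 and 25 among all identifiers in the controls and 9 in both CEBPB libraries. In the fit it rose by 0.39 on the log2 scale (edgeR, SE 0.09, adjusted p = 0.0199), or 1.31-fold, the smallest of the 5 rises. When control 2 was left out the value was 0.32 and missed the threshold (edgeR, adjusted p = 0.113).

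FTH1 (ENSG00000167996.16, chromosome 11, 61959718 to 61967660, minus strand) encodes the heavy chain, whose ferroxidase activity takes up ferrous iron. It read 2293 and 1822 TPM in the controls and 4481 and 4618 TPM in the CEBPB libraries, with no overlap and with the wider spread in the controls (2058 ± 333 TPM, SD, n = 2, against 4549.6 ± 97.1 TPM, SD, n = 2). The fit gave a rise of 0.97 on the log2 scale (edgeR, SE 0.12, adjusted p = 0.0023), or 1.95-fold. FTH1 moved from ranks 75 and 88 to rank 21 in both CEBPB libraries. Together the FTH1 and FTL identifiers took 0.718% and 0.631% of all TPM in the controls and 1.11% and 1.19% in the CEBPB libraries.

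The mRNAs of the ferritin chains can be set against each other as a ratio. The ratio of FTH1 to FTL TPM was 0.469 and 0.406 in the controls and 0.681 and 0.635 in the CEBPB libraries. Both CEBPB values were above both control values, and with 2 libraries against 2 an exact permutation test cannot go below p = 0.333, so none was run. Ferritin mRNA has many processed pseudogenes, to which reads can be assigned in error. The 25 listed FTH1 pseudogenes summed to 1.13 to 3.79 TPM per library and the 16 FTL pseudogenes to at most 0.453 TPM, small beside the genes themselves. BEST1, which overlaps FTH1 on the opposite strand, lay at 1.42 to 4.06 TPM, and the strand setting of the counting is not given in the sources used here.

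NCOA4 (ENSG00000266412.6, chromosome 10, 46005088 to 46030714, minus strand) encodes the receptor that carries ferritin into autophagosomes. It stood at 102 and 99.6 TPM in the controls and at 238 and 183 TPM in the CEBPB libraries. The controls were nearly equal, and the CEBPB libraries lay apart from each other but both well above them. NCOA4 rose by 0.88 on the log2 scale (edgeR, SE 0.11, adjusted p = 0.0023), and this was 0.73 without CEBPB library 1 and 1.03 without CEBPB library 2. Its 4 listed pseudogenes were at 0 in every library. None of the 4 other tested genes of the storage list passed. Those were PCBP1 and PCBP2, which encode chaperones that hand iron to ferritin, PCBP4, and HERC2, whose product marks NCOA4 for degradation. PCBP1 had a log2 fold change of 0.07 (adjusted p = 0.393, edgeR) and PCBP2 one of 0.029 (adjusted p = 0.730, edgeR). With libraries scaled by their totals both passed as higher, at 0.25 (adjusted p = 0.0281, edgeR) and 0.21 (adjusted p = 0.0461, edgeR), so that 5 of the 7 tested storage genes were then higher. In that setting 32.3% of all identifiers tested were higher and their median log2 fold change was 0.18, so both values lay close to the general shift. PCBP4 (-0.51, adjusted p = 0.102, edgeR) passed as lower on recovered reads without a length offset (-0.66, adjusted p = 0.0141, edgeR). HERC2 had a value of 0.16 (adjusted p = 0.371, edgeR).

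SLC40A1 (ENSG00000138449.11, chromosome 2, 189560579 to 189583758, minus strand) encodes ferroportin, the iron exporter. It was rare, at 1.59 and 1.65 TPM in the controls and 6.11 and 4.76 TPM in the CEBPB libraries, which corresponds to 81 and 91 reads and to 296 and 209 reads. The groups did not overlap. SLC40A1 rose 2.91-fold, or 1.54 on the log2 scale (edgeR, SE 0.22, adjusted p = 0.0036), and stayed past the threshold in each of the 18 alternative settings, between 1.29 and 1.73. Of the other genes of export and its control, hepcidin (HAMP), the hormone that removes ferroportin from the membrane, was at 0 in both controls and at 0.0430 and 0.0491 TPM in the CEBPB libraries. Ceruloplasmin (CP), a ferroxidase that serves ferroportin, was under 1 TPM in every library and was not tested.

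TFRC (ENSG00000072274.14, chromosome 3, 196027183 to 196082189, minus strand) encodes transferrin receptor 1, the main route of iron into dividing cells, and carries the 4 hairpins printed above. It read 182 and 190 TPM in the controls and 191 and 177 TPM in the CEBPB libraries. The groups overlapped, with the highest and the lowest value both in CEBPB libraries. The fitted log2 difference was -0.20 (edgeR, SE 0.06, adjusted p = 0.0432), just past the threshold. With libraries scaled by their totals it was -0.018 (adjusted p = 0.854, edgeR). It also missed the threshold with a replicate block (adjusted p = 0.0818, edgeR) and with any 1 of the 4 libraries left out: control 1 (adjusted p = 0.168), control 2 (0.275), CEBPB library 1 (0.0666) or CEBPB library 2 (0.0926, edgeR). The call therefore rests on the scaling and on all 4 libraries together, and it stood in 7 of 18 alternatives. The ratio of TFRC to FTH1 TPM, receptor to heavy chain, was 0.0796 and 0.104 in the controls and 0.0425 and 0.0383 in the CEBPB libraries, without overlap.

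TFR2 (ENSG00000106327.13, chromosome 7, 100620416 to 100642779, minus strand) encodes transferrin receptor 2, a sensor of transferrin saturation known from liver and erythroid cells. It lay at 4.47 and 5.69 TPM in the controls and 1.60 and 2.82 TPM in the CEBPB libraries, below the controls in both. Both CEBPB libraries were below both controls for 28.6% of all identifiers tested. The recovered reads were 201 and 249 in the controls and 70 in each CEBPB library. TFR2 fell, with a log2 value of -1.39 (edgeR, SE 0.34, adjusted p = 0.0215). The call was lost when control 2 (-1.20, adjusted p = 0.0944) or CEBPB library 1 (-0.99, adjusted p = 0.0526, edgeR) was left out, and against a change of 1.5-fold (adjusted p = 0.0905, edgeR).

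STEAP3 (ENSG00000115107.20, chromosome 2, 119223831 to 119265652, plus strand) encodes the endosomal ferrireductase that readies transferrin iron for transport. It read 7.79 and 9.38 TPM in the controls and 2.94 and 2.93 TPM in the CEBPB libraries. The CEBPB libraries agreed closely with each other and were well below both controls. STEAP3 fell, with a log2 value of -1.74 (edgeR, SE 0.18, adjusted p = 0.0012). Across the 18 alternatives it lay between -1.87 and -1.28 and passed in each, which was not so of TFRC or TFR2.

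The next genes encode transporters of the SLC11 family, which carry ferrous iron. SLC11A2 (ENSG00000110911.17, chromosome 12, 50979401 to 51028566, minus strand) encodes DMT1, which moves iron out of the endosome. It stood at 19.5 and 15.3 TPM in the controls and 17.7 and 16.7 TPM in the CEBPB libraries, the latter inside the range of the controls. SLC11A2 did not pass (log2 value -0.20, edgeR, SE 0.14, adjusted p = 0.287). SLC11A1 (ENSG00000018280.17, chromosome 2, 218382029 to 218396894, plus strand) encodes NRAMP1, which draws metal out of the phagosomes of myeloid cells. It read 2.43 and 1.74 TPM in the controls and 7.72 and 6.47 TPM in the CEBPB libraries, with no overlap, from 69 and 92 reads and from 352 and 198 reads. SLC11A1 rose 3.01-fold, or 1.59 on the log2 scale (edgeR, SE 0.23, adjusted p = 0.0034). Its value was above that of SLC40A1, and the order turned without control 2 (1.38 against 1.56) and without CEBPB library 2. A test of the difference between these 2 genes was not made.

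IREB2 (ENSG00000136381.13, chromosome 15, 78437431 to 78501456, plus strand) encodes iron regulatory protein 2, which binds the hairpins printed above and is itself broken down when iron is plentiful. It read 51.5 and 54.7 TPM in the controls and 50.5 and 52.6 TPM in the CEBPB libraries, which overlapped. IREB2 had a log2 value of -0.22 (edgeR, SE 0.08, adjusted p = 0.0696). It passed on recovered reads with a length offset (-0.27, adjusted p = 0.0258, edgeR) and without CEBPB library 2 (-0.29, adjusted p = 0.0484, edgeR). The value was close to 0 on library totals (-0.043, adjusted p = 0.675, edgeR) and on recovered reads without a length offset (-0.0094, adjusted p = 0.887, edgeR). ACO1, which encodes iron regulatory protein 1, had a log2 fold change of 0.089 (adjusted p = 0.500, edgeR). FBXL5, the iron-sensing ubiquitin ligase subunit that marks IRP2 for degradation, rose from 53.9 and 51.2 TPM to 84.9 and 86.4 TPM (0.53, SE 0.07, adjusted p = 0.0034, edgeR).

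**Figure D2:**
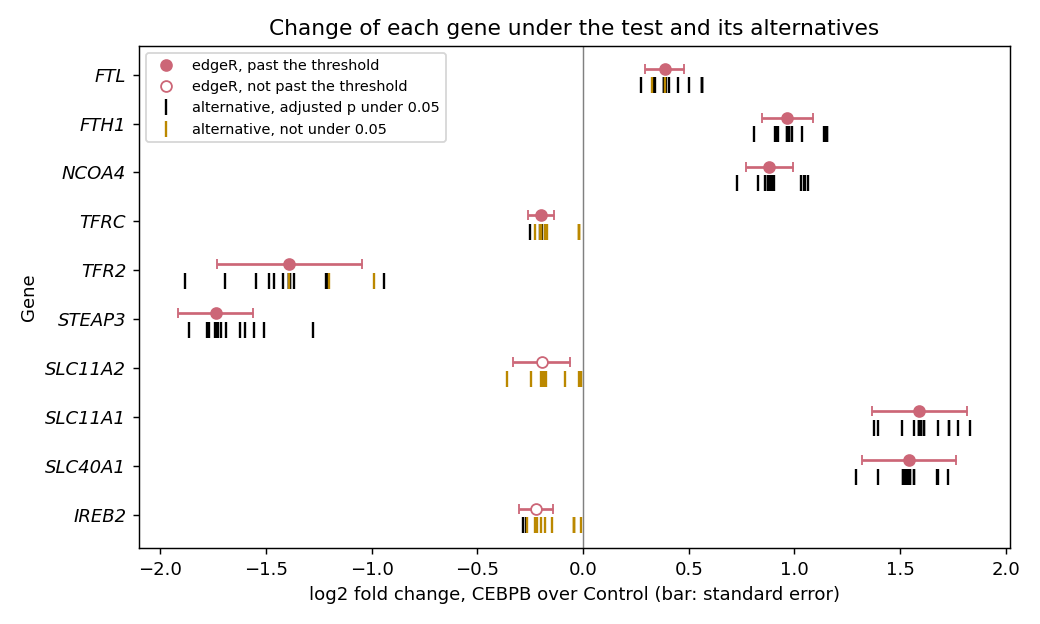
Log2 fold change of each gene, CEBPB over Control, with its standard error (circle and bar; filled where adjusted p was under 0.05 in edgeR's quasi-likelihood test) and the 18 alternative settings below it (ticks; black where adjusted p was under 0.05). FTH1, NCOA4, SLC40A1, SLC11A1 and STEAP3 passed in each alternative, while most ticks of TFRC did not and reach -0.018.

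The effective length of a gene, the average over its transcripts weighted by their abundance, is a readout apart from its level and can move with the mix of transcripts. FTL, with 1 transcript in GENCODE release 29, also varied, from 749 to 768 bases, so a difference in length need not reflect that mix. With limma on log2 effective length, 0 of the 10 genes passed, and 0.0% of 13698 identifiers did, with 13.3% at an unadjusted p under 0.05. IREB2 was at 3432 and 3411 bases in the controls and 4320 and 3908 bases in the CEBPB libraries (log2 difference 0.26, SE 0.06, adjusted p = 0.331, limma). STEAP3 was at 4432 and 4324 bases and at 4813 and 4927 bases (0.15, SE 0.03, adjusted p = 0.295, limma). In these genes and in NCOA4 and TFRC, 4 of the 10, both CEBPB libraries were longer than either control, which was so for 43.0% of all identifiers tested. The lengths of SLC11A1 (1668 and 2886 bases in the controls, 2790 and 2143 bases in the CEBPB libraries), TFR2 (2634 and 2380, then 2680 and 1741 bases) and SLC11A2 (1939 and 2472, then 2463 and 2399 bases) varied as much within a group as between groups. The ferritin genes kept their length within 1.39% (FTH1) and 2.46% (FTL) over the 4 libraries.

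**Figure D3:**
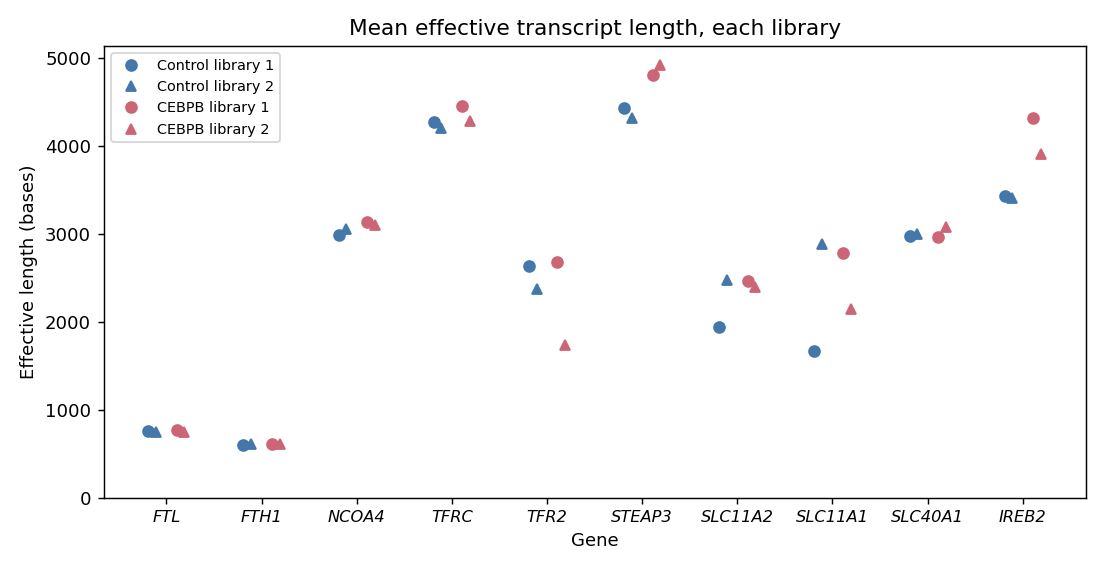
Mean effective transcript length in bases of each gene in the 4 libraries (circles library 1, triangles library 2). STEAP3, IREB2, NCOA4 and TFRC were longer in both CEBPB libraries than in either control, as were 43.0% of all identifiers tested, and SLC11A1 and TFR2 spread widely within a group.

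Wider lists of iron genes did not share 1 direction. Of 103 listed genes 85 were tested, and of these 28 were higher, 21 lower and 36 not past the threshold, with a median log2 fold change of 0.04. With libraries scaled by their totals, 34 were higher and 12 lower, where 32.3% of all identifiers were higher and 17.2% lower. Of the 75 tested genes outside the 10, 23 were higher and 18 lower, beside 23.7% and 24.7% of all identifiers. In the list of iron import and reduction 4 of 12 were higher and 4 lower. SLC39A14, which encodes a transporter of iron not bound to transferrin, fell from 44.3 and 47.7 TPM to 32.3 and 28.9 TPM (-0.77, adjusted p = 0.0012, edgeR). HFE, the haemochromatosis gene whose product binds transferrin receptor 1, rose from 2.21 and 1.93 TPM to 5.85 and 4.54 TPM (1.13, adjusted p = 0.0101, edgeR), and not without control 2 (adjusted p = 0.0503) or CEBPB library 1 (adjusted p = 0.0543, edgeR). The metal transporter gene SLC39A8 (0.46, adjusted p = 0.0273, edgeR) and the ferrireductase gene CYBRD1 (0.48, adjusted p = 0.0405, edgeR) passed as higher. SLC39A8 did not pass without control 1 (adjusted p = 0.115), control 2 (0.064) or CEBPB library 2 (0.0635, edgeR), nor CYBRD1 without control 2 (0.142), CEBPB library 1 (0.162) or CEBPB library 2 (0.0673, edgeR). Without control 2 only 1 gene of this list was higher and 2 lower. Without CEBPB library 1, 2 were higher and 2 lower, and without CEBPB library 2, 2 were higher.

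Of 13 tested genes of export and its control 5 were higher and 2 lower. On recovered reads without a length offset 8 were higher and 4 lower, and the share of all identifiers there was not computed. Beside the first of these counts and the next ones, 23.7% of all identifiers tested were higher and 24.7% lower. On library totals the shares were 32.3% and 17.2%. SMAD4, the shared mediator of BMP and TGF-β signals, rose from 23.0 and 21.7 to 40.7 and 36.4 TPM (0.61, adjusted p = 0.0025, edgeR). SMAD6, an inhibitor of BMP signals, fell from 2.41 and 2.35 to 0.403 and 0.503 TPM (-2.57, adjusted p = 0.0033, edgeR), and the BMP target ID1 fell from 5.81 and 5.19 to 1.89 and 1.87 TPM (-1.72, adjusted p = 0.0018, edgeR). BMP6, the ligand that drives hepcidin in liver, was at 0 in both controls and at 0.912 and 0.816 TPM in the CEBPB libraries, at least 36.9-fold higher against a floor of 3 reads over the controls. Of 15 regulators of iron mRNAs 5 were higher and 3 lower, and 1 was lower on library totals. ZC3H12A (Regnase-1), an endonuclease known to act on TFRC mRNA, rose from a mean of 11.2 to one of 30.2 TPM (1.26, adjusted p = 9.3e-04, edgeR). RC3H2 (Roquin-2), an RNA-binding protein of mRNA decay, rose from 9.82 and 10.8 to 23.0 and 20.9 TPM (0.91, adjusted p = 0.0015, edgeR). ZFP36 (tristetraprolin), which promotes decay of AU-rich mRNAs, fell from 44.0 and 43.1 to 21.8 and 25.2 TPM (-1.07, adjusted p = 0.0013, edgeR). EPAS1, which encodes HIF-2α and carries an iron-responsive element, rose from 0.0515 and 0.0944 to a mean of 1.57 TPM (4.16, adjusted p = 0.0026, edgeR). Its values rest on 4 and 10 recovered reads in the controls and 82 and 45 in the CEBPB libraries, so the size of the rise is poorly fixed.

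Of 16 tested genes of heme synthesis, transport and breakdown 5 were higher and 2 lower, with 8 and 1 on library totals. The shares of all identifiers tested were 23.7% higher and 24.7% lower, and 32.3% and 17.2% on library totals. HMOX1, heme oxygenase 1, which frees iron from heme, rose from 10.6 and 8.73 to 82.6 and 75.1 TPM (2.85, adjusted p = 1.2e-04, edgeR). ALAS1, the first enzyme of heme synthesis outside red cells, rose from 73.6 and 71.0 to 228 and 203 TPM (1.40, adjusted p = 1.9e-04, edgeR), while UROS, a later enzyme, fell from 57.0 and 53.1 to 33.1 and 34.3 TPM (-0.89, adjusted p = 9.2e-04, edgeR). HP, haptoglobin, whose near copy HPR can share its reads, rose from 0.677 and 0.256 to 7.09 and 5.60 TPM (3.59, adjusted p = 0.0015, edgeR). Its values rest on 5 and 2 recovered reads in the controls and 127 and 92 in the CEBPB libraries, so the size of the rise is poorly fixed. Without control 2 or without CEBPB library 1 only 1 heme gene was lower. Of 19 genes of mitochondrial iron and iron-sulfur clusters 4 were higher and 10 lower, with a median of -0.33. The mitochondrial transporter gene ABCB10 fell from 51.5 and 51.8 to 31.1 and 29.9 TPM (-0.94, adjusted p = 4.2e-04, edgeR). GLRX5, which passes on clusters, fell (-0.76, adjusted p = 0.0019, edgeR), and NFU1, a scaffold for late cluster steps, rose from 37.6 and 34.3 to 73.0 and 61.6 TPM (0.72, adjusted p = 0.0023, edgeR). In this list 5 genes were lower on library totals and 6 without control 2 or without CEBPB library 1, and 2 were higher without control 1, without control 2 or without CEBPB library 1.

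Of 3 tested genes in a list of siderophore and lactoferrin genes, LCN2 and LTF were higher, beside 23.7% of all identifiers tested. LCN2 (lipocalin 2), which captures bacterial siderophores, was at 0.0821 and 0 TPM in the controls and 12.4 and 13.7 TPM in CEBPB libraries 1 and 2. These rest on 1 read against 277, a ratio of 287 (95% exact counting interval 51.0 to 11358). LTF (lactoferrin) was at 0 in both controls and at 0.740 and 1.39 TPM in the CEBPB libraries, at least 29.7-fold higher against the same floor. BDH2, linked to a mammalian siderophore, did not pass (0.17, adjusted p = 0.337, edgeR), but did on recovered reads without a length offset (0.37, adjusted p = 0.025, edgeR). Intervals and floors cover counting error only.

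**Figure D4:**
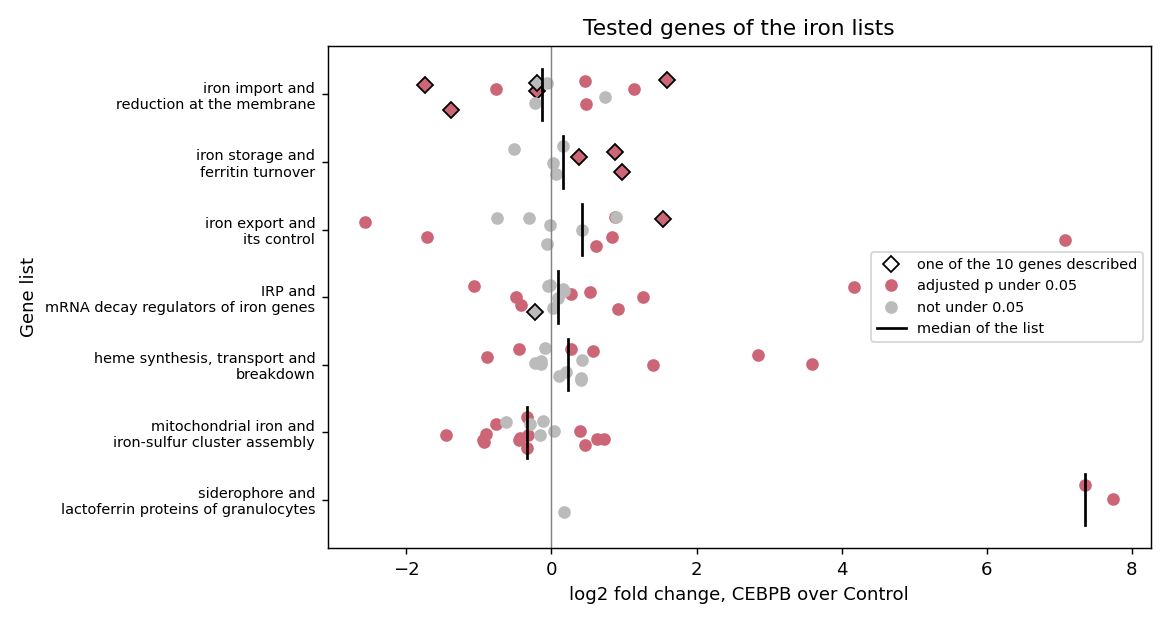
Log2 fold change, CEBPB over Control, of each tested gene in 7 lists of iron genes (red where adjusted p was under 0.05 in edgeR's quasi-likelihood test, grey otherwise; diamonds are the 10 genes described, lines the list medians). The storage list held 3 higher genes, all of them diamonds, and the mitochondrial list had its median at -0.33; fitted values of BMP6 and LTF, at 0 in the controls, depend on the prior count and are no measure of size.

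Promoters of RefSeq (GRCh38.p14, 250 bases before to 50 after the start) were in the table for 8 of the 10 genes, and FTH1 and TFR2 had no entry. The letters TTGCNNAA, a form of the C/EBP site, were on neither strand of any promoter of the 8 genes, where 10.5% of 35116 promoters held them. These 8 genes had 13 promoters in the table. The letters TGACNNNGC, the core of the antioxidant response element, were in 1 of the 13 (NCOA4, after the start), against 13.3% of all promoters on both strands. The loop letters CAGTGN stood on the gene's own strand in 4 of the 13 (of FTL, NCOA4, SLC11A1 and TFRC), against 32.1% of all promoters. In FTL this was the hairpin printed above. No match says only that these letters are not in this window.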

How the data were processed

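RNA of 2 Plex CEBPB and 2 Plex Control libraries was sequenced after poly(A) selection with a stranded kit, per the labels' protocols. Per the submitters' processing notes, Trimmomatic 0.39, kallisto 0.46.2 and GRCh38 were used. The annotation release, strand setting and step from transcripts to genes are not given in the sources used here. The deposited files hold TPM, expected counts and, as another unit, effective lengths in bases. Each deposited count equalled the TPM times 1 constant per library, so the counts carry no transcript length. Reads were recovered as TPM times length, rescaled to the library total. The main fit used the deposited counts, so its p-values do not rest on the recovered reads quoted beside some genes.

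Symbols came from a table that matched 35690 of 41084 identifiers, and coordinates from GENCODE release 29. Counts were rounded, filtered with filterByExpr (13698 left), given TMM factors (0.938 to 1.09) and fitted with edgeR 4.0.16 in R 4.3.3 by group alone. The standard error is the fold change over the root of F. Effective lengths were tested with limma 3.58.1. Alternatives were other scalings, other filters, limma-voom, DESeq2 1.42.0, log2 TPM in limma (1 or 0.1 added), recovered reads, a replicate block, a 1.5-fold test, a fit without CEBPB and mitochondrial genes, and each library left out, the lone library of a group being assumed to vary like the other group. The fit was tested on simulated data.

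The 10 genes and the lists were chosen with earlier results of these data known. Named beside them were up to 4 genes per list with the smallest adjusted p, 1 of each direction where both passed, and ZC3H12A, ACO1, FBXL5, HMOX1 and HAMP. Of the genes so chosen, 1 is not reported here. CP, BEST1, the pseudogenes and the hairpin search were added after the data were seen. Python 3.11.15 and matplotlib 3.10.9 drew the plots.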

Additional observations from a re-analysis of the deposited data

How the results depend on the processing

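FTH1, NCOA4, SLC40A1, SLC11A1 and STEAP3 kept their direction and their call in each of 18 alternatives, and SLC11A2 stayed short of the threshold in each. Over all 10 genes, 162 of the alternative values kept the call, 16 lost it (TFRC, TFR2 and FTL), 2 gained it (IREB2), and none changed direction. The count of lower genes among the 10 was 1 in the 1.5-fold test and 1 to 3 with a library left out, and the count of higher genes 4 to 5. Over all iron lists, 13 genes were higher and 10 lower in the 1.5-fold test, 12 were lower on library totals and on log2 TPM with 1 or 0.1 added, and with a library left out 20 to 26 were higher and 13 to 19 lower. Fewer genes pass the 1.5-fold test by its construction. For the others the cause was not tested. Among the other named genes HERC2 changed sign on recovered reads without a length offset (-0.0019) and without CEBPB library 1 (-0.021, against up to 0.32 with another library left out), and PCBP2 on recovered reads with (-0.023) and without (-0.024) a length offset and without control 1 (-0.011, against up to 0.065 with another library left out), none past the threshold. As ratios of recovered reads, which carry length, FTH1 to FTL was 0.350 in the controls and 0.526 in the CEBPB libraries, and TFRC to FTH1 0.645 and 0.291. Upstream of the start alone, TGACNNNGC was in 0 of the 13 promoters of the 8 genes, against 10.9% of all promoters. CAGTGN was in 2 of the 13, against 26.3%.

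Libraries with the same number deviated from their group means with a correlation of -0.013 over genes, so no shared shift by number was seen. With 2 libraries a group this cannot tell whether libraries of the same number were prepared together. With a replicate block 5 of the 10 genes were higher and 2 lower, TFRC being lost, and 28 and 20 genes of all iron lists. Among the 10 genes, depth limits the values of TFR2, SLC40A1 and SLC11A1, which rest on 69 to 352 reads per library. It also limits STEAP3 in the CEBPB libraries, with 231 and 206 recovered reads against 590 and 746 in the controls.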
